A study of Mus musculus with 22 samples.

Results

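The genes described here are 34 genes of glucose breakdown and of the cellular response to low oxygen. They comprise 17 glycolytic enzymes and lactate dehydrogenases, 4 glucose and lactate carriers, 3 enzymes that steer the flow of carbon, the transcription factor subunit Hif1a with 2 of the hydroxylases that control it, and 7 further target genes of hypoxia-inducible factor (HIF). They were picked by symbol from the deposited table of gene counts and are 34 of its 54532 genes. Aldoa stands on 2 rows of the table under separate identifiers, so the 34 genes fill 35 rows, and the second row was kept apart from the counts below.

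The RNA came from microglia, the resident macrophages of the brain, of male C57BL/6J mice in a model of Gulf War Illness, a chronic multisymptom condition of veterans. At the age of 10 weeks, exposed (GW) mice were given 10 daily intraperitoneal doses of pyridostigmine bromide at 0.7 mg/kg, which blocks acetylcholinesterase, together with the insecticide permethrin at 200 mg/kg. Control (Ctrl) mice were given the vehicle, and all mice were studied at 17.5 months. Cannabidiol (CBD), a plant cannabinoid, was given to part of the GW mice at 30 mg/kg, daily for 28 days and then every 2 days for 2 weeks, while the remaining GW mice and all Ctrl mice were given its vehicle.

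Each mouse then received either 0.33 mg/kg of lipopolysaccharide (LPS) from Escherichia coli, a bacterial envelope component that activates innate immune cells, or phosphate-buffered saline (PBS), 24 hours before the brain was taken. The 6 groups were Ctrl-PBS (n = 4), Ctrl-LPS (n = 4), GW-PBS (n = 4), GW-LPS (n = 3), GW-CBD-PBS (n = 3) and GW-CBD-LPS (n = 4). No group of unexposed mice was given CBD in these 22 libraries. Live cells with intermediate CD45, with CD11b and without CD11a were sorted after removal of myelin, and polyadenylated RNA was sequenced. Whether a library stands for 1 mouse is not stated, so p-values here reflect only the spread from library to library.

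Glycolysis turns glucose into pyruvate through a chain of enzymes in the cytosol, and lactate dehydrogenase turns pyruvate into lactate when mitochondria do not take it up. HIF is held low in oxygenated cells because prolyl hydroxylases mark its alpha subunit for destruction, and once stabilised it switches on glucose carriers, glycolytic enzymes and genes of mitochondrial turnover and blood vessel growth. Macrophages and microglia exposed to LPS are known to raise glycolysis, and this is tied in part to HIF1 in the textbook account of macrophage activation.

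Libraries held 28676930 to 40458326 counts, and all 34 genes passed the filter on low counts that left 16554 genes in the test. All 10 microglial markers were detected in every library, at summed levels of 26296 to 51715 CPM (counts scaled to the size of the library). This sum was lower after LPS in control mice, at 26296 to 34846 CPM against 39797 to 51715 CPM with PBS. A sum of 12 neutrophil markers was raised in 3 libraries, called neutrophil-high below. Replicate 3 of Ctrl-PBS had 26469 CPM, replicate 1 of Ctrl-LPS had 3071 CPM and replicate 1 of GW-PBS had 1878 CPM, while the others had at most 329.9 CPM. In these bulk samples, fewer cells that express a gene and less RNA per cell cannot be told apart.

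Between genes, levels are compared here as CPM per kilobase (kb) of exon, averaged over the 22 libraries. The length joins all annotated exons of a gene, for example 1570 bp for Ldhb, 5379 bp for Eno1 and 5001 bp for Pkm. The order depends on these lengths, since in plain CPM Eno1 (995) and Pkm (973) stood above Ldhb (963). Ldhb, the lactate dehydrogenase chain typical of tissues that burn lactate, was highest at 613 CPM per kb. It was followed by the aldolase Aldoa (268), the pyruvate kinase Pkm (195), the enolase Eno1 (185) and the other lactate dehydrogenase chain Ldha (149). The ranges of Pkm (115 to 439) and Eno1 (139.5 to 351) over the libraries, PBS and LPS groups together, overlapped almost fully. These neighbours in the order were not compared library by library. Of the 3 hexokinases, which trap glucose as glucose 6-phosphate, Hk3 stood at 41.8, Hk2 at 19.2 and Hk1 at 6.45. At the low end were the angiogenic factor Vegfa (0.563) and the vasodilator peptide Adm (0.263), both HIF targets in many cell types. Hif1a itself stood at 20.9 CPM per kb.

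HIF binds a core of 5 bases, ACGTG or GCGTG, and the RefSeq promoter table (build GRCm38.p6), with 250 bases before and 50 bases after each start, was searched for it on both strands. The table held 31 of the 34 genes, and Bnip3l, Ndrg1 and Slc2a3 had no entry in it. Each gene entered with a single window, also where RefSeq listed several. Pfkm had 4 windows, Aldoa and Eno1 had 3 each, and Pkm and Ldha had 2 each, among others. A core was found in 25 of the 31 windows used (80.6%). Over all 32851 windows of the same length, with every window of a gene counted, the share was 43.8%. Matches in the other windows of these genes are not given here. The windows of these genes also held more G and C, with a median of 64.7% against 52.7% over all windows. Among windows with 60 to 70% G and C, 11 of 13 held a core against 68.3% of all such windows, and between 50 and 60% it was 7 of 11 against 46.0%. A palindrome CACGTG counts as a match on each strand.

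The windows of 5 genes that moved with LPS are printed 5′ to 3′ on the gene's strand, because they show how unlike these promoters are. Capitals mark the core or, where it lies on the other strand, its complement CACGT or CACGC. The window of Ldha (chr7:46845554-46845853, plus strand) held 7 matches, that of Bnip3 (chr7:138909457-138909756, minus strand) held 5, that of Ankrd37 (chr8:45999801-46000100, minus strand) held 4 and that of Pgk1 (chrX:106186850-106187149, plus strand) held 2. Pkm (chr9:59656326-59656625, plus strand) had 0 matches in this window. That says nothing about the other RefSeq window of Pkm or about other sequence around the gene.
Ldha: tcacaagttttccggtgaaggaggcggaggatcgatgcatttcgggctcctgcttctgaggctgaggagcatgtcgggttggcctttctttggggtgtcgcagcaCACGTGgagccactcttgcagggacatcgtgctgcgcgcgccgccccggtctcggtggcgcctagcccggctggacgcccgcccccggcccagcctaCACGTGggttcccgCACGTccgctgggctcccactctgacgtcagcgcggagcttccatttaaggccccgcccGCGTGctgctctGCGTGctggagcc
Pgk1: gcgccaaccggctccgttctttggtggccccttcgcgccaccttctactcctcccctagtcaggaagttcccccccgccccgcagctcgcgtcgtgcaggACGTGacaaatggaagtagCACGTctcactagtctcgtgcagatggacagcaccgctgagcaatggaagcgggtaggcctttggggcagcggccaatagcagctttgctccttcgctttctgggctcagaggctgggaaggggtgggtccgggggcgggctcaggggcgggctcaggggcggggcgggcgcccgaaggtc
Pkm: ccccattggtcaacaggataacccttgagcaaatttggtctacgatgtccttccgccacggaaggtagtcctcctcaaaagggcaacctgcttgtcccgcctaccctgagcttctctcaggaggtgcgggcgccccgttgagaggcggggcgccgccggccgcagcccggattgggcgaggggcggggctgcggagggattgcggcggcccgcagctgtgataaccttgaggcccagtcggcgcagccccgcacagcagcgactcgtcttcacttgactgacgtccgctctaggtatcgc
Bnip3: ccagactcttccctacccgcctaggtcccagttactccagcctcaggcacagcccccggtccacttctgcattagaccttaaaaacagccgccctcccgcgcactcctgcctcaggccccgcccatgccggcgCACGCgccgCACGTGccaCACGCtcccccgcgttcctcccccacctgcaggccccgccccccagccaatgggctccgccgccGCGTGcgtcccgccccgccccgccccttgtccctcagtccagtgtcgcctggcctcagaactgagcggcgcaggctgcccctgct
Ankrd37: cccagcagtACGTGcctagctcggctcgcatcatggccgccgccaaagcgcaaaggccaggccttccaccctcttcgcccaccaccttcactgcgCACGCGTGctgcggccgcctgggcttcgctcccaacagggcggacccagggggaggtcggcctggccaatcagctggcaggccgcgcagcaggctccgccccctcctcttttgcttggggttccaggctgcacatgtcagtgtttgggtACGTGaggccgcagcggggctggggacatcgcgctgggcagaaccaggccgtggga

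The first comparison asked how the genes responded to LPS in mice that had never met the Gulf War chemicals. After LPS, RNA of Pkm, Eno1 and Pgk1, 3 of the 5 genes of lower glycolysis, and of Ldha rose in control microglia by 0.69 to 1.06 on the log2 scale. The phosphofructokinase Pfkl, the glucose carrier Slc2a1 and the regulator Pfkfb4 rose by 0.43 to 0.63, while Pdk1 and Ndrg1 fell. By edgeR's quasi-likelihood test with Benjamini-Hochberg adjustment over all genes at 0.05, 9 of the 34 genes changed (26.5%, against 20.4% of all genes tested). Of these, 7 were higher (20.6%, against 10.8% of all genes) and 2 were lower (5.88%, against 9.62%). The median log2 change was 0.17 over the 34 genes and -0.02 over all genes, and 5 of the 17 glycolytic genes rose while 0 fell. All libraries of 1 group lay above all of the other in 5 genes on the higher side (12.2% of all genes tested) and 3 on the lower side (10.8%).

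Pkm (ENSMUSG00000032294, chr9:59656368-59679375 on the plus strand) makes pyruvate in the last step of glycolysis. It was counted at 632, 576, 1056 and 657 CPM in Ctrl-PBS replicates 1 to 4 and at 2194, 1079, 1274 and 1545 CPM in Ctrl-LPS replicates 1 to 4. The groups did not overlap, and the highest control library was replicate 3, which carried the raised neutrophil markers. The log2 change was 1.06 ± 0.23 (standard error, SE) with an adjusted p of 0.00269, and 15.34% of the exon length of Pkm is shared with the gene Gm49759 on the same strand.

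Ldha (ENSMUSG00000063229, chr7:46841475-46855627 on the plus strand), which reduces pyruvate to lactate, was at 345, 337, 509.7 and 338 CPM with PBS and at 1061, 490.4, 759.9 and 745 CPM with LPS. Here the groups overlapped, because Ctrl-PBS replicate 3 lay above Ctrl-LPS replicate 2. Its log2 change was 1.00 ± 0.20 (SE, adjusted p = 0.00149). Its partner chain Ldhb did not move with Ldha, at 959.5 ± 104 CPM (SD, n = 4) with PBS and 968 ± 165 CPM (SD, n = 4) with LPS.

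Eno1 (ENSMUSG00000063524, chr4:150236721-150248879 on the plus strand), which makes phosphoenolpyruvate, went from 787, 828.9, 1076 and 754 CPM to 1886, 1083, 1208 and 1487 CPM. All 4 LPS libraries lay above all 4 PBS libraries, by 0.72 ± 0.16 on the log2 scale (SE, adjusted p = 0.00256). Pgk1 (ENSMUSG00000062070, chrX:106187100-106203699 on the plus strand), the first enzyme of the chain to yield ATP, was at 85.3, 83.9, 136 and 78.1 CPM with PBS and at 204, 104, 151 and 159 CPM with LPS. Its groups overlapped at Ctrl-PBS replicate 3, and the log2 change was 0.69 ± 0.22 (SE, adjusted p = 0.0308). In all 4 of these genes Ctrl-LPS replicate 1, a neutrophil-high library, had the highest level of its group. With that library left out, as with each other library in turn, Pkm, Ldha and Eno1 passed the test in all 8 fits, with log2 changes of at least 0.83, 0.80 and 0.55. Pgk1 passed in the fits without Ctrl-PBS replicate 3 and without Ctrl-LPS replicate 2, and its adjusted p reached 0.125 in the others, without Ctrl-LPS replicate 1. Its neighbour Tpi1, which interconverts the triose phosphates, was at 197, 206, 261 and 202 CPM with PBS and at 380.3, 189, 303 and 332 CPM with LPS, and did not pass in edgeR, but did without Ctrl-LPS replicate 2 (0.65, adjusted p = 0.0162) and with limma voom (0.49, adjusted p = 0.0375).

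**Figure D1:**
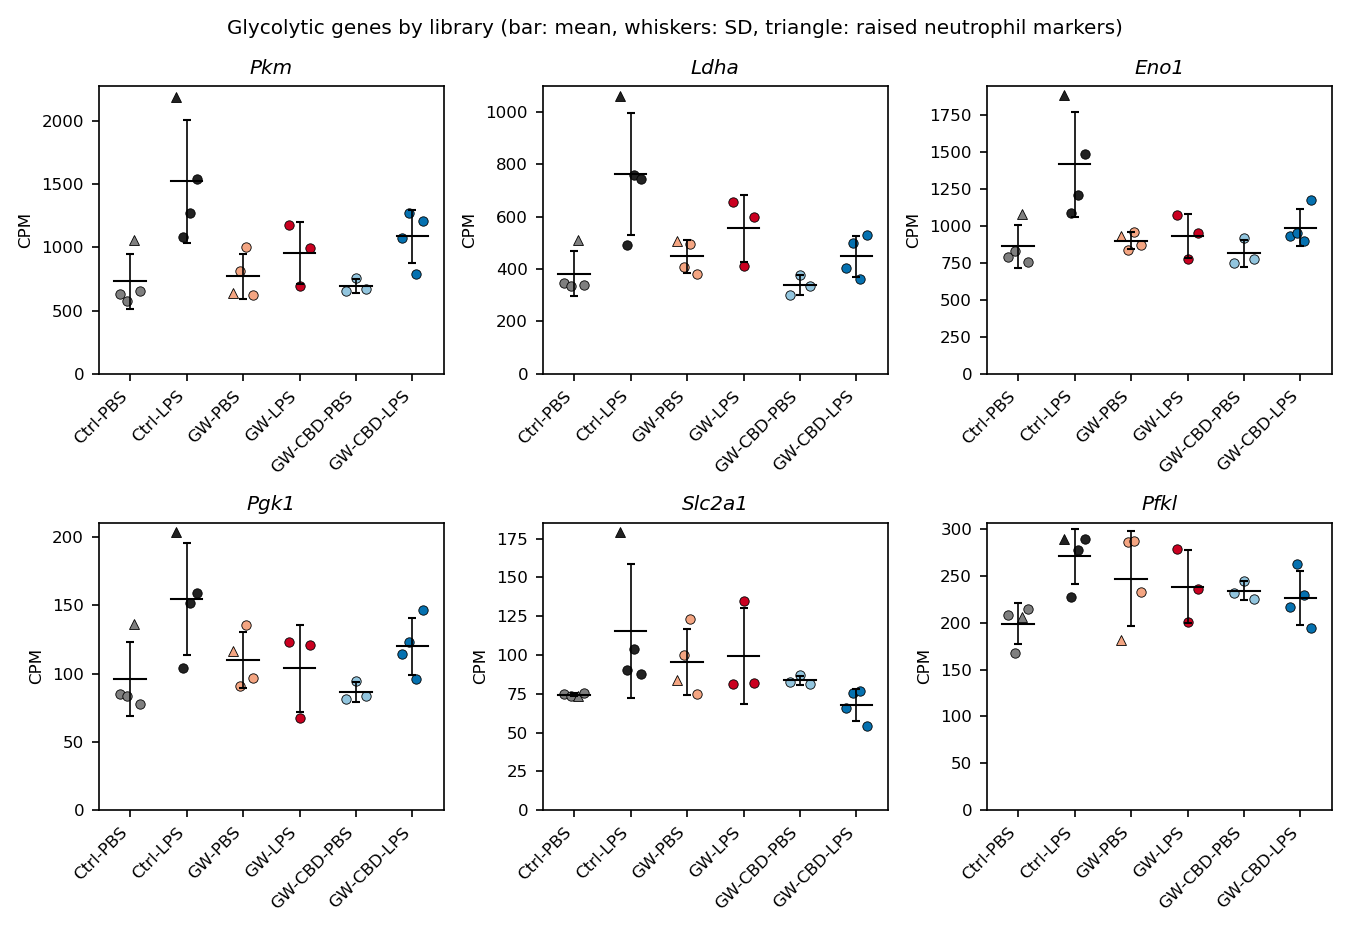
CPM of Pkm, Ldha, Eno1, Pgk1, Slc2a1 and Pfkl in each library of the 6 groups, with the group mean as a bar and the SD as whiskers; triangles are the 3 neutrophil-high libraries. In control mice the LPS libraries of Pkm run from 1079 to 2194 CPM against 576 to 1056 CPM with PBS, while GW-LPS libraries run from 692 to 1178 CPM.

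Pfkl (ENSMUSG00000020277, chr10:77986947-78010083 on the minus strand), the liver-type phosphofructokinase that commits sugar to glycolysis, was at 208, 167, 206 and 215 CPM with PBS and at 289, 227, 277 and 289.5 CPM with LPS. The groups did not overlap, and the log2 change was 0.44 ± 0.14 (SE, adjusted p = 0.0339). The muscle and platelet forms of the enzyme, Pfkm and Pfkp, were far lower per kb (2.44 and 0.571 against 35.3 for Pfkl) and did not pass the test.

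Slc2a1 (ENSMUSG00000028645, chr4:119108711-119137983 on the plus strand), the carrier GLUT1, was very even with PBS at 74.8, 73.4, 73.9 and 75.6 CPM, and stood at 179, 90.4, 104 and 87.9 CPM with LPS. Its log2 change was 0.63 ± 0.21 (SE, adjusted p = 0.0356), and all LPS libraries were above all PBS libraries. Without Ctrl-LPS replicate 1 it was 0.34 (adjusted p = 0.214). Slc2a1 is also a marker of brain endothelium, and the summed endothelial markers were lower with LPS, at 12.9 to 30.5 CPM against 36.6 to 65.7 CPM. Their part in the result was not tested. Pfkfb4 (ENSMUSG00000025648, chr9:108991778-109032228 on the plus strand), which sets the level of the activator fructose 2,6-bisphosphate, was at 148, 109, 148 and 133 CPM with PBS and at 161, 204, 193 and 167 CPM with LPS, a log2 change of 0.43 ± 0.13 (SE, adjusted p = 0.0224) without overlap.

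Leaving out single libraries ended the calls of these smaller rises. Pfkl kept its call in the fits without Ctrl-PBS replicate 4 and without Ctrl-LPS replicate 2 and lost it in the other 6, where adjusted p reached 0.101. Slc2a1 kept it without Ctrl-LPS replicate 2 or 4 and lost it in the other 6. Pfkfb4 lost it without Ctrl-PBS replicate 2 or 4 or Ctrl-LPS replicate 2 or 3, with adjusted p up to 0.0828. Without the 3 neutrophil-high libraries 9 genes were again called, 7 of them the same, and 2316 of all 16263 genes tested. Pfkl (adjusted p = 0.0745) and Slc2a1 (adjusted p = 0.287) were lost. The isomerase Gpi1 (log2 change 0.83, adjusted p = 0.00123) and the high-affinity carrier Slc2a3, or GLUT3 (1.69, adjusted p = 0.0109), were gained.

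The 2 genes that fell kept their calls in all 8 fits that left out a library. Pdk1 (ENSMUSG00000006494, chr2:71873224-71903858 on the plus strand), a kinase that inhibits pyruvate dehydrogenase in mitochondria, was at 135, 105, 94.0 and 123 CPM with PBS and at 60.9, 68.0, 64.3 and 62.7 CPM with LPS. The log2 change was -0.84 ± 0.16 (SE, adjusted p = 0.000756), the groups were well apart, and leaving out a library left it between -0.96 and -0.75. Ndrg1 (ENSMUSG00000005125, chr15:66929318-66969640 on the minus strand), a stress-response gene induced by hypoxia in many cells, was at 4.45, 11.8, 16.8 and 13 CPM with PBS and at 4.42, 2.75, 2.67 and 2.44 CPM with LPS.

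For Ndrg1 the log2 change was -1.91 ± 0.32 (SE, adjusted p = 0.000233), and it ran from -2.18 to -1.71 when a library was left out. Its groups stayed apart only narrowly, since Ctrl-PBS replicate 1 (4.45 CPM) was just above Ctrl-LPS replicate 1 (4.42 CPM). Ndrg1 is abundant in oligodendrocytes, and the 5 oligodendrocyte markers summed to 225 to 459 CPM with PBS and 149.6 to 286 CPM with LPS, with overlap. The part of these cells in the fall of Ndrg1 was not tested.

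**Figure D2:**
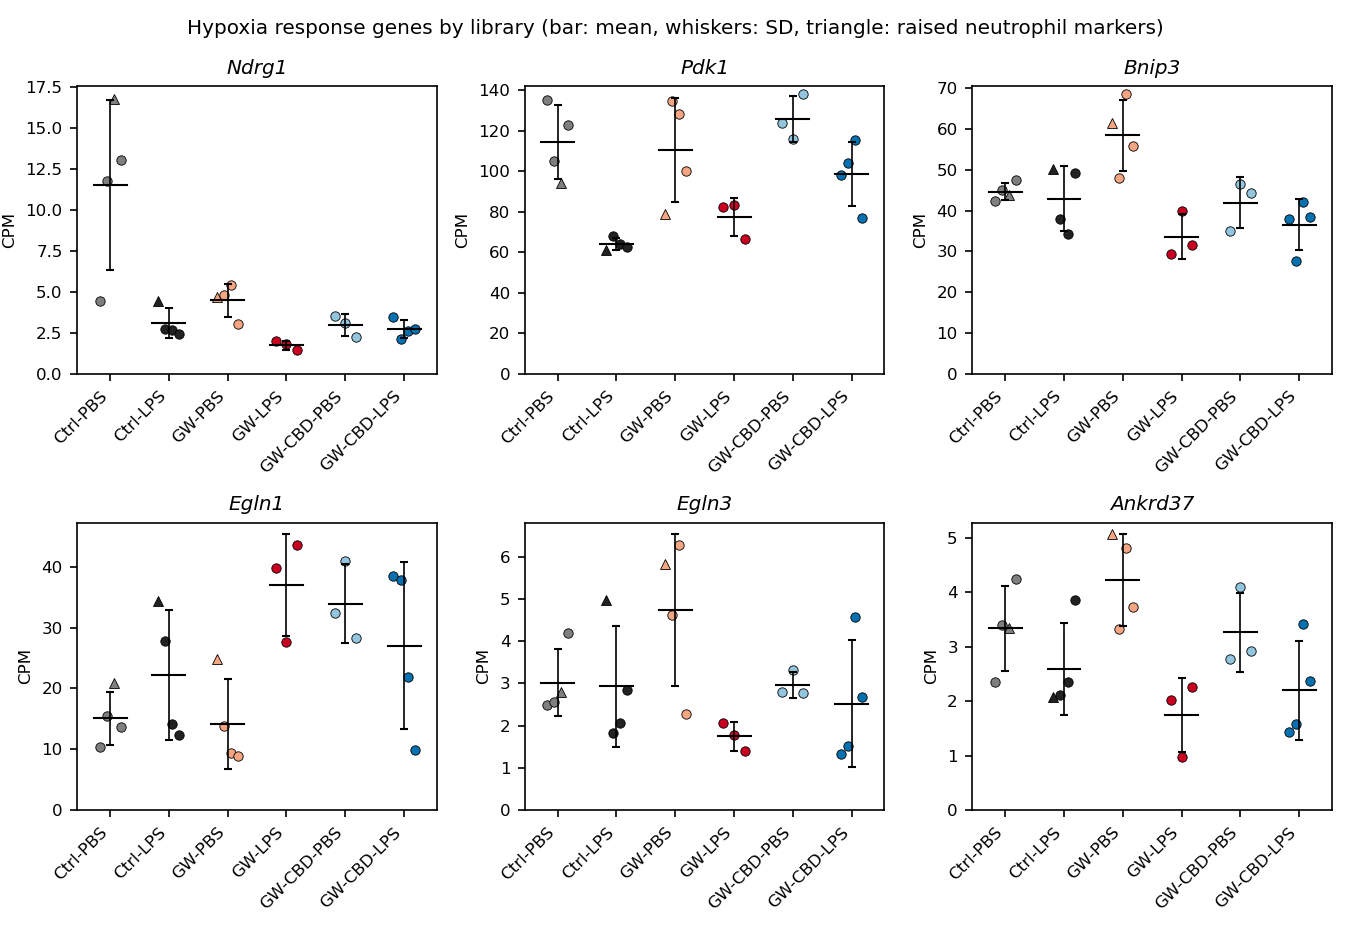
CPM of Ndrg1, Pdk1, Bnip3, Egln1, Egln3 and Ankrd37 in each library of the 6 groups, with the mean as a bar, the SD as whiskers and triangles for the 3 neutrophil-high libraries. Pdk1 lies between 60.9 and 68.0 CPM in Ctrl-LPS against 94.0 to 135 CPM in Ctrl-PBS, and Bnip3 between 29.4 and 39.9 CPM in GW-LPS against 48.1 to 68.5 CPM in GW-PBS.

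Hif1a and the oxygen sensors among the 34 genes did not pass the test in control mice. Hif1a was at 142, 106, 123 and 130.2 CPM with PBS and at 117, 111, 108 and 79.8 CPM with LPS (log2 change -0.27 ± 0.20, SE, adjusted p = 0.365). Its hydroxylases Egln1 and Egln3, the mitophagy receptors Bnip3 and Bnip3l and the HIF targets Vegfa, Adm, P4ha1 and Ankrd37 did not pass either. Vegfa was at 2.53 ± 2.13 CPM with PBS and 2.65 ± 1.25 CPM with LPS (SD, n = 4 each). The proton-linked lactate exporter Slc16a3 was at 89.9, 81.9, 178 and 87.0 CPM with PBS, again highest in replicate 3, and at 205, 80.6, 117 and 107 CPM with LPS.

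Nor did the hexokinases pass in edgeR. Hk2, the inducible form, was at 110.2 ± 8.78 CPM with PBS and 118 ± 13 CPM with LPS (SD, n = 4 each), a log2 change of 0.10 ± 0.13 (SE). Hk1 (-0.54 ± 0.20, SE) and Hk3 (-0.58 ± 0.25, SE) were lower at unadjusted p of 0.0157 and 0.0315, with adjusted p of 0.0674 and 0.109. With DESeq2 Hk1 was called lower (adjusted p = 0.0317), and with limma voom Hk1 and Hk3 were (adjusted p = 0.0176 and 0.0406). Both were called lower when Ctrl-LPS replicate 3 was left out (adjusted p = 0.0339 and 0.0345), as was P4ha1 (adjusted p = 0.0469; 0.0293 with limma voom), the prolyl hydroxylase of collagen, and Hk1 also without Ctrl-PBS replicate 2 (adjusted p = 0.0218). Pfkfb3, the relative of Pfkfb4 best known from activated macrophages, was at 141 ± 14.9 and 168 ± 30.7 CPM (SD, n = 4 each), with a log2 change of 0.25 ± 0.22 (SE, adjusted p = 0.456).

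The next comparison asked the same of GW mice. After LPS, RNA of Ldhb, of Egln3 and of 3 of the 7 further HIF targets (Bnip3, Ndrg1 and Ankrd37) fell in their microglia, while no gene of lower glycolysis passed the test. Of the 34 genes 7 changed (20.6%, against 9.53% of all genes tested), of which 2 rose (5.88%, against 4.45%) and 5 fell (14.7%, against 5.07%). The fallers were Bnip3, Ndrg1, Ankrd37, Egln3 and Ldhb, the risers Egln1 and Pfkfb4. Summed markers moved with LPS in these libraries too, without overlap between GW-LPS and GW-PBS. Microglial markers were at 29915 to 35051 against 45114 to 45783 CPM, border macrophage markers at 294 to 467 against 148 to 267 CPM, erythroid markers at 63.8 to 130.2 against 250.4 to 1765 CPM and endothelial markers at 14.7 to 21.7 against 25.2 to 50.3 CPM. Their part in the changes of the 7 genes was not tested. None of the 17 glycolytic genes rose, 1 fell, and their median log2 change was -0.08, against -0.04 over all genes. The groups did not overlap in 3 genes on the higher side (9.22% of all genes tested) and 5 on the lower side (10.4%).

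Bnip3 (ENSMUSG00000078566, chr7:138890836-138909519 on the minus strand), an outer mitochondrial membrane protein that marks mitochondria for removal, was at 61.5, 48.1, 68.5 and 55.8 CPM in GW-PBS replicates 1 to 4 and at 29.4, 39.9 and 31.6 CPM in GW-LPS replicates 2 to 4. The groups did not overlap, the log2 change was -0.80 ± 0.17 (SE, adjusted p = 0.00603), and the call held in all 7 fits that left out a library, between -0.94 and -0.71. Of its exon length 22.25% is shared with Gm45507 on the opposite strand. Its relative Bnip3l was at 226 ± 45.1 CPM (SD, n = 4) and 190.4 ± 27.7 CPM (SD, n = 3) and did not pass.

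Ndrg1 fell here too, from 4.68, 4.81, 5.40 and 3.02 CPM to 1.97, 1.78 and 1.42 CPM, a log2 change of -1.38 ± 0.35 (SE, adjusted p = 0.0171). All GW-LPS libraries were below all GW-PBS libraries, and the summed oligodendrocyte markers were 119 to 207 CPM and 159.7 to 326 CPM, with overlap and a lower range after LPS. Ankrd37 (ENSMUSG00000050914, chr8:45996902-46005707 on the minus strand), a small ankyrin repeat protein with a HIF-driven promoter, was at 5.07, 3.32, 4.81 and 3.72 CPM and then at 2.02, 0.976 and 2.26 CPM. Its log2 change was -1.27 ± 0.35 (SE, adjusted p = 0.0275), without overlap, and 22.68% of its exon length is shared with Lrp2bp on the opposite strand.

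The HIF hydroxylases moved apart. Egln3 (ENSMUSG00000035105, chr12:54178981-54203860 on the minus strand), itself a HIF target, was at 5.82, 4.61, 6.26 and 2.27 CPM with PBS and at 2.07, 1.78 and 1.39 CPM with LPS (log2 change -1.44 ± 0.43, SE, adjusted p = 0.0400). Egln1 (ENSMUSG00000031987, chr8:124908587-124949324 on the minus strand), the main oxygen sensor of most cells, was at 24.8, 13.8, 9.34 and 8.85 CPM and then at 39.8, 27.6 and 43.6 CPM (1.38 ± 0.42, SE, adjusted p = 0.0420). Neither pair of groups overlapped, though GW-PBS replicate 4 of Egln3 and GW-PBS replicate 1 of Egln1 lay close to the LPS libraries. Hif1a did not pass, at 79.8, 160.2, 174 and 104 CPM and then at 119, 129 and 110.1 CPM.

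Ldhb (ENSMUSG00000030246, chr6:142490249-142507957 on the minus strand) was at 1476, 936, 978 and 1025 CPM in GW-PBS and at 752, 632 and 671 CPM in GW-LPS, where it was lower in all 3 libraries than in any with PBS (-0.69 ± 0.17, SE, adjusted p = 0.0130). Pfkfb4 rose as in control mice, from 117, 147, 146 and 121 CPM to 169.9, 222 and 158 CPM (0.47 ± 0.14, SE, adjusted p = 0.0382). Pdk1 was at 78.9, 135, 128 and 100.2 CPM and then at 82.2, 83.1 and 66.3 CPM (-0.52 ± 0.17, SE, adjusted p = 0.0605), and it passed without GW-PBS replicate 1 (-0.67, adjusted p = 0.0156). Slc2a3 was at 5.79, 12.5, 9.01 and 9.66 CPM and then at 15.6, 64.6 and 20.9 CPM, a log2 change of 1.87 ± 0.69 (SE, adjusted p = 0.0925) that passed without the 3 neutrophil-high libraries (1.67, adjusted p = 0.0209).

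Apart from that of Bnip3, each of these calls was lost when certain single libraries were left out. Between 1 and 6 genes were called when a library was left out, with 1 gene left when GW-LPS replicate 3 was omitted, 2 when it was replicate 4 and 3 when it was replicate 2, and with 4 when GW-PBS replicate 3 was omitted. Over all genes, those fits called 889, 733, 1076 and 1104 in that order, against 1577 with all libraries. Ldhb and Ndrg1 lost their calls without GW-LPS replicate 3 or 4 (adjusted p of at most 0.0570 and 0.0795). Ankrd37 kept its call without GW-PBS replicate 2 or 4 or GW-LPS replicate 4, Egln3 and Pfkfb4 in 2 fits each, and Egln1 in the fit without GW-PBS replicate 1 alone, with adjusted p of up to 0.135, 0.149, 0.261 and 0.132 in the others.

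**Figure D3:**
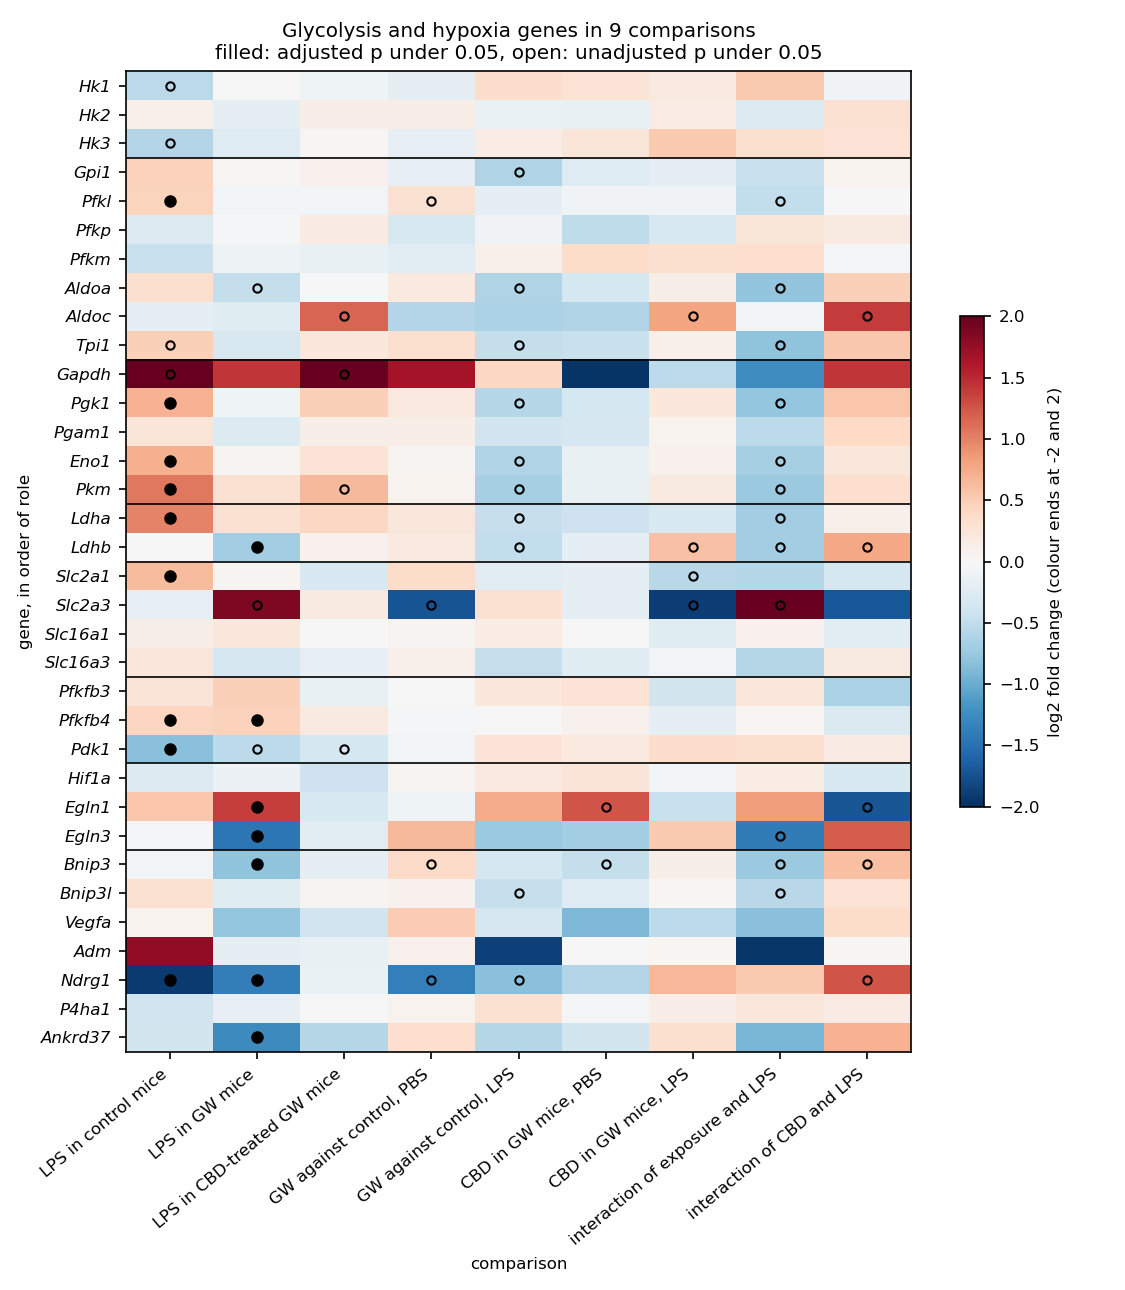
Log2 fold change of each of the 34 genes (rows, ordered by role) in 9 comparisons (columns), with filled circles for an adjusted p under 0.05 and open circles for an unadjusted p under 0.05. Filled circles occur in the columns for LPS in control mice (9 genes) and LPS in GW mice (7 genes).

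Whether the response to LPS differed between GW and control mice was tested as an interaction. By edgeR 0 of the 34 genes passed (0% of all genes passed as well), with a smallest adjusted p of 0.353, while 11 genes were lower and 1 higher, Slc2a3 (4.4% of all genes were higher), at an unadjusted p under 0.05. The estimate of Slc2a3 was 2.03 ± 0.93 (SE) and became 0.18 ± 0.55 (SE) without Ctrl-PBS replicate 3, where Slc2a3 stood at 97.4 CPM, and -0.02 ± 0.58 (SE) without the 3 neutrophil-high libraries. With DESeq2 0 genes were called, and with limma voom (quality weights) 1, Bnip3 (-0.87, adjusted p = 0.0494), while 0.671% of all genes were. The 11 genes (32.4%, against 8.28% of all genes) were Pfkl, Aldoa, Tpi1, Pgk1, Eno1, Pkm, Ldha, Ldhb, Egln3, Bnip3 and Bnip3l, so 8 of the 17 glycolytic genes were among them. The estimate was below 0 for 13 of these 17, with a median of -0.52 against 0.01 over all genes tested.

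Summed over the 17 glycolytic genes, the level was 4913 ± 705 CPM in Ctrl-PBS and 7096 ± 1641 CPM in Ctrl-LPS (SD, n = 4 each). In GW-PBS it was 5409 ± 528 CPM (SD, n = 4) and in GW-LPS 4961 ± 899.7 CPM (SD, n = 3). Abundant genes weigh most in this sum. Averaged over all libraries, Eno1 stood at 995 CPM, Pkm at 973, Ldhb at 963 and Aldoa at 779, against 55.0 for Hk1. The Ctrl-LPS libraries spread widely, from 5347 to 9130 CPM, and the highest was replicate 1 with its raised neutrophil markers. The count of 11 genes dropped to 5 without Ctrl-LPS replicate 1 or without GW-PBS replicate 3 and to 7 without GW-LPS replicate 3. It was 13 without Ctrl-PBS replicate 3 and 11 without the 3 neutrophil-high libraries. With all libraries, 1370 of all 16554 genes were lower at an unadjusted edgeR p under 0.05, and 2099 were so in either direction. For the fits without libraries the split by direction was not counted over all genes. The number in either direction was 1383 of 16486 without Ctrl-LPS replicate 1, 2089 of 16480 without GW-PBS replicate 3 and 1821 of 17250 without GW-LPS replicate 3. It was 1937 of 16448 without Ctrl-PBS replicate 3 and 854 of 16263 without the 3 neutrophil-high libraries.

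**Figure D4:**
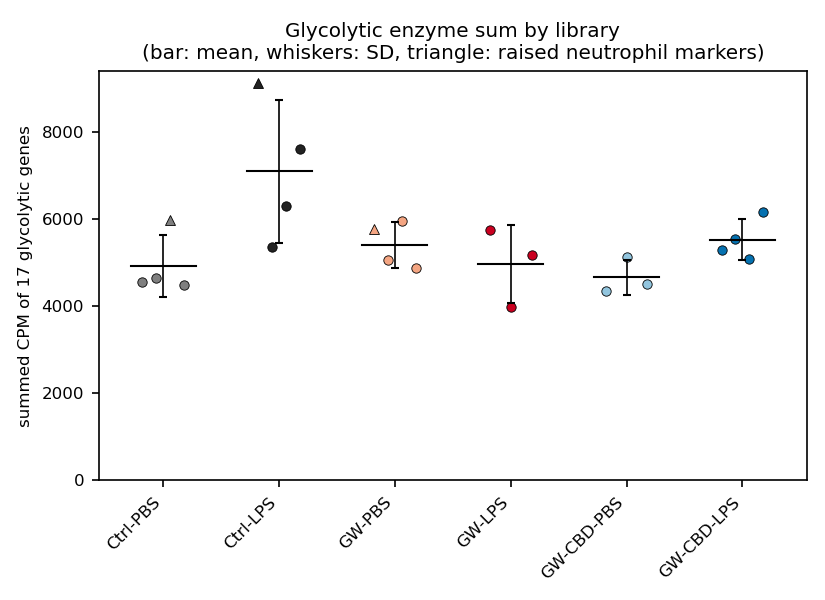
Summed CPM of the 17 glycolytic genes in each library of the 6 groups, with the mean as a bar and the SD as whiskers; triangles are the 3 neutrophil-high libraries. Ctrl-LPS libraries reach from 5347 to 9130 CPM, and the other 5 groups lie between 3979 and 6163 CPM.

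GW and control libraries were also set directly against each other after LPS, a comparison that shares its libraries with the interaction. In edgeR 0 of the 34 genes passed (0% of all genes), with a smallest adjusted p of 0.258 for Eno1, and 10 genes were lower and 0 higher at an unadjusted p under 0.05 (29.4%, against 7.45% of all genes lower and 6.24% higher). DESeq2 called 0 and limma voom 3 (Bnip3l, Eno1 and Ldhb), 8.82% against 1.96% of all genes. Gpi1, Eno1, Ldhb and Ndrg1 were lower in every GW-LPS library than in any Ctrl-LPS library, that is 4 of 34, while 6.25% of all genes tested were so. Eno1 was at 1069, 773 and 953 CPM in GW-LPS against 1083 CPM in the lowest Ctrl-LPS library (-0.60 ± 0.17, SE).

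Without LPS, the exposure left 0 of the 34 genes past the threshold in edgeR (0% of all genes), DESeq2 and limma voom alike. At an unadjusted p under 0.05, 2 were higher (Pfkl 0.31 ± 0.14 and Bnip3 0.39 ± 0.16, SE) and 2 lower (Slc2a3 -1.73 ± 0.65 and Ndrg1 -1.36 ± 0.31, SE), against 3.75% of all genes in either direction. Bnip3 was at 42.3, 45, 43.9 and 47.5 CPM in Ctrl-PBS, all below the lowest GW-PBS library at 48.1 CPM. For Slc2a3 the Ctrl-PBS mean rested on replicate 3, at 97.4 CPM against 6.85, 9.29 and 9.22 CPM in the other libraries.

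In CBD-treated GW mice LPS moved 0 of the 34 genes past the threshold in edgeR, where 0.417% of all genes passed, and the smallest adjusted p was 0.197. At an unadjusted p under 0.05, 3 were higher (Pkm, Gapdh and the brain-type aldolase Aldoc), 8.82% against 7.52% of all genes, and 1 was lower (Pdk1), 2.94% against 3.48%. DESeq2 called 1, Aldoc (1.16, adjusted p = 0.0383), where 2.08% of all genes passed. Limma voom called 7 (20.6%, against 22.8% of all genes), namely Aldoc, Ankrd37, Gapdh, Hif1a, Pdk1, Pgk1 and Pkm. Aldoc was at 11.8, 18.2 and 10.6 CPM in GW-CBD-PBS replicates 2 to 4 and at 29.6, 29.6, 26.1 and 36.2 CPM in GW-CBD-LPS replicates 1 to 4, with no overlap.

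Pkm in the same mice was at 656, 761 and 670.4 CPM and then at 1076, 1270, 790.1 and 1210 CPM, and these groups did not overlap either (0.64 ± 0.25, SE, adjusted p = 0.332). Pdk1 was at 124, 116 and 138 CPM and then at 98.4, 104, 115 and 77.1 CPM (-0.35 ± 0.17, SE). Pdk1 was thus lower after LPS in all 3 settings, by -0.84, -0.52 and -0.35 on the log2 scale, and passed the test in control mice. Ndrg1, which fell in the other settings, was at 3.53, 3.12 and 2.26 CPM and then at 3.44, 2.11, 2.63 and 2.73 CPM.

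Under LPS, CBD-treated and untreated GW mice differed in 0 of the 34 genes by edgeR, where 2.31% of all genes passed. At an unadjusted p under 0.05, 2 were higher with CBD (Ldhb and Aldoc; 7.9% of all genes) and 2 lower (Slc2a1 and Slc2a3; 6.5% of all genes). Ldhb came nearest, at 752, 632 and 671 CPM in GW-LPS and 1023, 796, 1116 and 1161 CPM in GW-CBD-LPS, without overlap (0.58 ± 0.17, SE, adjusted p = 0.0720). It passed in DESeq2 (adjusted p = 0.0136), without GW-CBD-LPS replicate 2 (0.71, adjusted p = 0.0164) and without the 3 neutrophil-high libraries (adjusted p = 0.0247). Limma voom called 7 genes (20.6%, against 21.2% of all genes), namely Aldoc, Hk1, Hk3, Ldha, Ldhb, Pdk1 and Slc2a3. Between these groups the summed microglial markers were 29915 to 35051 CPM without CBD and 40149 to 47986 CPM with it, and the endothelial ones 14.7 to 21.7 and 26.1 to 36.7 CPM. Their part in the differences was not tested.

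Both carriers were lower with CBD under LPS, GLUT1 at 65.9, 75.3, 76.5 and 54.2 CPM against 81.6, 135 and 81.8 CPM, and GLUT3 at 9.80, 12.4, 8.19 and 5.96 CPM against 15.6, 64.6 and 20.9 CPM. Neither gene's groups overlapped. The log2 change was -0.55 ± 0.22 for Slc2a1 and -1.89 ± 0.69 for Slc2a3 (SE, adjusted p = 0.232 and 0.175). Slc2a3 passed without the 3 neutrophil-high libraries (-1.86, adjusted p = 0.0103).

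With PBS, CBD left 0 of the 34 genes past the threshold in edgeR (0% of all genes) and in DESeq2, and limma voom called 2, while 1.31% of all genes passed there. These were Egln1 and Bnip3, the only genes of the 34 with an unadjusted p under 0.05 in edgeR, 1 higher (2.4% of all genes) and 1 lower (7.08%). Egln1 was at 32.4, 41.0 and 28.3 CPM with CBD against 24.8, 13.8, 9.34 and 8.85 CPM without, and Bnip3 at 34.9, 46.6 and 44.3 CPM against 61.5, 48.1, 68.5 and 55.8 CPM. Neither overlapped, with log2 changes of 1.26 ± 0.42 and -0.48 ± 0.17 (SE, adjusted p = 0.524 for both).

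The interaction of CBD and LPS likewise held 0 of the 34 genes in edgeR, where 0.0181% of all genes passed, and 0 in DESeq2. At an unadjusted p under 0.05, Aldoc, Ldhb, Bnip3 and Ndrg1 were higher (9.64% of all genes were) and Egln1 lower (5.71%), and these are the 5 genes that limma voom called (14.7%, against 13.8% of all genes). The edgeR estimates were 1.40 ± 0.50 for Aldoc, 0.77 ± 0.23 for Ldhb, 0.60 ± 0.24 for Bnip3, 1.25 ± 0.48 for Ndrg1 and -1.71 ± 0.59 for Egln1 (SE), with a smallest adjusted p of 0.173. Every comparison of CBD shares the GW-PBS or GW-LPS libraries with those of exposure.

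Gapdh (ENSMUSG00000057666), the enzyme between Tpi1 and Pgk1 and a common reference gene, behaved unlike its neighbours. It was at 2.54 to 8.97 CPM in 15 libraries and at 40.8 to 81.4 CPM in 7, namely Ctrl-LPS replicates 1 and 2, GW-PBS replicate 2, GW-LPS replicates 3 and 4 and GW-CBD-LPS replicates 1 and 2. Per kb of exon it ran from 0.615 to 19.7, below the lowest library of Tpi1 (53.3), of Pgk1 (29.9) and of Pgam1 (48.4). The separation from Pgk1 depends on the exon lengths used, 4133 bp for Gapdh and 2244 bp for Pgk1. In plain CPM the highest Gapdh library, at 81.4, lay above Pgk1 in Ctrl-PBS replicate 4, at 78.1. The SE of Gapdh for LPS in control mice was 1.14 on the log2 scale, and Gapdh passed the test in none of the 9 edgeR comparisons. Gapdh has many near-identical copies in the mouse genome, so its share of the reads depends on the counting and is uncertain, as it is to a lesser degree for other glycolytic genes with such copies. Whether the copies bear on its low level or on the split between libraries was not tested.

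**Figure D5:**
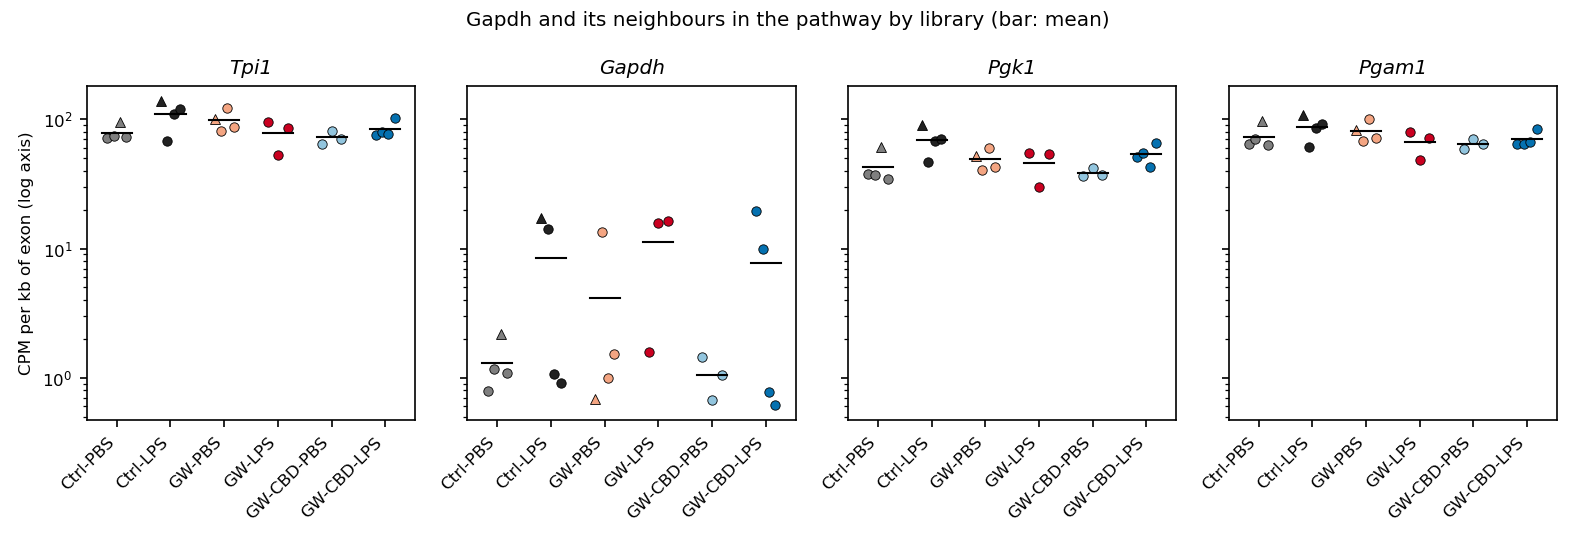
CPM per kb of exon (log axis) of Tpi1, Gapdh, Pgk1 and Pgam1, neighbours in the pathway, in each library of the 6 groups, with the mean as a bar and triangles for the 3 neutrophil-high libraries. Gapdh splits into 15 libraries at low and 7 at higher levels. Per kb it lies in all 22 below the lowest library of the other 3 genes, which for Pgk1 does not hold in plain CPM.

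The second row named Aldoa (ENSMUSG00000114515, chr7:126800790-126809108) held 0.160 to 1.26 CPM, against 779 CPM on average for the main row. It was at 0.450, 0.881, 0.867 and 0.504 CPM in GW-PBS, at 0.255, 0.172 and 0.231 CPM in GW-LPS and at 1.26, 1.20, 0.791 and 0.945 CPM in GW-CBD-LPS. In edgeR it was lower with LPS in GW mice (-1.60 ± 0.50, SE, adjusted p = 0.0471) and higher with CBD under LPS (2.23 ± 0.51, SE, adjusted p = 0.0215), without overlap in either case. The first call held in 1 of the 7 fits with a library omitted, without GW-PBS replicate 1, and the second was lost without GW-LPS replicate 3 or 4 or GW-CBD-LPS replicate 1. The main row of Aldoa did not pass in any edgeR comparison, and with limma voom it was lower with LPS in GW mice (-0.42, adjusted p = 0.0418).

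Other genes of the same pathways, from lists of other glycolytic, pentose phosphate, pyruvate, transport, HIF system and hypoxia genes, were counted in the same edgeR table. After LPS in control mice 25 of 87 passed (28.7%, against 20.4% of all genes tested), 16 higher and 9 lower. Of 15 other glycolytic genes 2 rose and 2 fell, among them the fructose bisphosphatase-like Tigar (1.09 ± 0.20, SE) and muscle enolase Eno3 (-1.08 ± 0.17, SE). In the pentose phosphate pathway, which makes NADPH, 2 of 9 rose, Pgd (0.61) and Pgls (0.70), and 0 fell. Of 13 genes of pyruvate entry to mitochondria or its use there 2 rose, the kinase Pdk3 (0.58) and the dehydrogenase subunit Pdha1 (0.57). Pdk3 thus went against its relative Pdk1. Of 11 other carriers 1 rose, Slc2a6 (1.26), and 2 fell, the fructose carrier Slc2a5 (-1.35) and the lactate carrier Slc16a7 (-0.74).

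The HIF system proper held 2 rises and 2 falls among 12 genes in control mice. Vhl, the ubiquitin ligase subunit that recognises hydroxylated HIF, fell from 144 ± 6.87 to 95.8 ± 4.10 CPM (SD, n = 4 each; -0.59 ± 0.09, SE). Hif3a rose from 0.102 ± 0.105 to 1.91 ± 1.38 CPM and the hydroxylase Egln2 by 0.29, a call that was lost in 4 of 8 fits without a library (adjusted p up to 0.0899 without Ctrl-LPS replicate 4, and also without Ctrl-PBS replicates 1, 3 or 4). Among 27 other hypoxia targets 7 rose and 3 fell. Cyclin G2, Ccng2, fell from 234 ± 11.6 to 72.3 ± 23.2 CPM (-1.70 ± 0.20, SE), while the heme oxygenase Hmox1 (1.38 ± 0.19, SE) and the lysyl hydroxylase Plod1 (0.83 ± 0.11, SE) rose.

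In GW mice LPS moved 10 of these 87 genes (11.5%, near the 9.53% of all genes tested), 5 in each direction. Vhl (-0.49), Ccng2 (-1.26), Eno3 (-0.81), Slc2a5 (-1.04) and the lysyl oxidase Lox (-3.07) fell, and Hif3a (3.81), Plod1 (0.89), Tigar (0.92), Pdha1 (0.58) and Dlat (0.51), another subunit of the pyruvate dehydrogenase complex, rose. Without GW-LPS replicate 3 the calls of Eno3, Slc2a5, Hif3a, Tigar, Pdha1 and Dlat were lost (adjusted p = 0.0770, 0.120, 0.230, 0.0577, 0.112 and 0.102). Dlat lost its call in 6 of the 7 fits, Slc2a5 also without GW-PBS replicates 1 or 4 or GW-LPS replicate 4, Pdha1 also without GW-PBS replicate 1 or GW-LPS replicate 4, and Hif3a also without GW-PBS replicate 1.

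With CBD under LPS 3 of the 87 genes passed (3.45%, near the 2.31% of all genes tested). Vhl (0.39 ± 0.09, SE) and Ccng2 (0.84 ± 0.21, SE) were higher, and Ddit4, a hypoxia-induced brake on mTORC1, was lower, at 4.16 ± 0.523 CPM (SD, n = 4) against 42.4 ± 28.2 CPM (SD, n = 3) without CBD (-3.35 ± 0.69, SE, adjusted p = 0.0108). The call of Ddit4 was lost without GW-LPS replicate 3 (-2.77, adjusted p = 0.0973). That of Vhl was lost without GW-LPS replicates 3 or 4 or GW-CBD-LPS replicates 1 or 3, and that of Ccng2 without any of the 3 GW-LPS libraries or GW-CBD-LPS replicates 1 or 3, with adjusted p up to 0.165 and 0.214.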

How the data were processed

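The authors deposited whole-number read counts per gene in 1 table of 22 libraries, aligned to GRCm38 per the labels' protocols; the choice of aligner, counter, strand setting and gene annotation is not given in the sources used here. No 2 libraries of a group agreed within sampling noise (chi-square per degree of freedom 11.7 to 234). Totals were 28676930 to 40458326 counts, and CPM are counts divided by the total with edgeR's TMM factors. Genes were tested with edgeR 4.0.16 (TMM, quasi-likelihood, two-sided, all 6 groups in 1 fit, 16554 genes after a filter on low counts; limma 3.58.1 and DESeq2 1.42.0 as alternatives, R 4.3.3), with Benjamini-Hochberg adjustment over all genes at 0.05. The SE of an edgeR log2 change was derived from the test, as the size of the change divided by the square root of the F statistic. The common biological coefficient of variation was 0.352. The scripts were tested on simulated data.

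Groups follow the sample labels, with replicate numbers as in the library names. Named genes are members past the threshold, members at an unadjusted p under 0.05, and the leading genes of each further list; others named were chosen after their values were seen. The members and lists were chosen with earlier results of these data known. The low-count filter, scaling, tool, replicate block, groups in the fit and libraries left out were varied. Gene coordinates are from GENCODE M21 (GRCm38; 54495 of 54532 identifiers found) and promoter windows from RefSeq (GRCm38.p6). Figures were drawn with matplotlib 3.10.9.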

Additional observations from a re-analysis of the deposited data

Results flagged for a closer look

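In 15 of 140 sets of 1 gene in 1 group of 4 libraries, a library stood apart from the other 3 by more than the 95% limit of Dixon's gap test, where chance flags about 1 set in 20. Of these, 8 were Ctrl-PBS replicate 3, the library with 26469 CPM of summed neutrophil markers, and each was high. There Gpi1 was at 305 CPM (others 107 to 116), Pfkp at 21.4 CPM (5.93 to 6.10), Tpi1 at 261 CPM (197 to 206), Pgk1 at 136 CPM (78.1 to 85.3), Pkm at 1056 CPM (576 to 657), Ldha at 509.7 CPM (337 to 345), Slc2a3 at 97.4 CPM (6.85 to 9.29) and Slc16a3 at 178 CPM (81.9 to 89.9). The summed monocyte markers were also highest in that library, at 1802 CPM. The part of neutrophils or monocytes in these levels was not tested.

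In GW-PBS, Gapdh was at 55.2 CPM in replicate 2 (others 2.82 to 6.30) and Ldhb at 1476 CPM in replicate 1 (936 to 1025). In Ctrl-LPS, Ndrg1 was at 4.42 CPM in replicate 1 (2.44 to 2.75) and Ankrd37 at 3.85 CPM in replicate 4 (2.07 to 2.35). In GW-CBD-LPS, Pgam1 was at 167 CPM in replicate 4 (127 to 133), and replicate 2 was high in Vegfa at 2.26 CPM (1.13 to 1.27) and in Adm at 0.780 CPM (0.0565 to 0.172).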

How the results depend on the processing

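Of the single-gene results under the alternatives, 5328 stayed on their side of the threshold, 175 lost a call, 55 gained one and 0 called values reversed. Direction was not compared for values that were not called. Further pathway genes entered only where the main fit had called them, so they could lose a call but not gain one. The numbers lost and gained can therefore not be set against each other. For LPS in control mice the 9 called genes became 14 with limma voom and 5 with the compared groups fitted alone, and 6 to 9 when a library was left out. Over all genes these settings called 27.1%, 2700 of 14442, and 2384 to 3417. For LPS in GW mice the 7 became 4 without the low-count filter, 3 with the groups alone and 1 to 6 without a library. Over all genes these settings called 1174 of 28165, 607 of 14765, and 733 to 2286. Where edgeR called 0, limma voom called 7 for LPS in CBD-treated GW mice, 3 for GW against control with LPS, 2 for CBD with PBS, 7 for CBD with LPS, 1 for the interaction of exposure and LPS and 5 for that of CBD and LPS; over all genes it called 4494, 3809 and 3779 for LPS in control, GW and CBD-treated mice against 3378, 1577 and 69 in edgeR. DESeq2 called 1 for LPS in CBD-treated mice and 1 for CBD with LPS, where leaving out the 3 libraries with raised neutrophil markers gave 2 and leaving out a library 0 to 1. Among the further pathway genes, the 10 called for LPS in GW mice became 28 with limma voom, 4 with the groups alone and 4 to 13 without a library. The 3 called for CBD with LPS became 7 with DESeq2, 18 with limma voom, 0 with the groups alone, 7 without the 3 libraries and 0 to 4 without a library. Over all genes limma voom called 23.0% for LPS in GW mice. For CBD with LPS, DESeq2 called 5.44% of all genes and limma voom 21.2%. The groups alone gave 0 of 14495 there, the fit without the 3 libraries 672 of 16263, and fits without a library 97 to 532. The cause was not tested. Same-numbered libraries did not pair: the correlation of their deviations was -0.548 to 0.681 over 51 pairs, and 8 of 22 libraries correlated best with their own number. With the replicate number as a block, 9 of the 34 genes were called for LPS in control mice, 5 for LPS in GW mice and 0 elsewhere. Over all 16554 genes the block gave 3211, 1282 and at most 269 (CBD with LPS). The group size of 3 or 4 libraries limits the precision. Depth adds to this for genes with few counts, such as Adm with 0 to 75 counts in a library, and was not varied.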
